A study of Rattus norvegicus with 9 samples.

Results

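Organoids of the rat colon carcinoma line CC-531 were sequenced at 3 passages, and the library of passage 7 (p7) is compared here with the libraries of passages 8 and 9 (p8 and p9). These are 3 of the 9 libraries of the series, and the other 6, CC-531 cells in culture and ex vivo tumors, serve as reference levels. The pair of sides was chosen on measured values, since p7 stood apart from the other organoids across all genes. Every difference between p7 and p8 and p9 below is therefore a description, with no test, and rests on 1 library against 2. Muc2, Agr2, Dmbt1 and Vil1 were at higher levels in p7, but the secretory, mucosal defense and brush border lists that hold them had members on both sides. Over 2-fold lower in p7 were 23 of 27 cholesterol synthesis genes, 20 of 28 chaperones of the endoplasmic reticulum, 20 of 31 genes of the integrated stress response, 17 of 25 cytokine and NF-kB genes and 19 of 37 hypoxia genes, beside 10.5% of all genes kept, and none in these lists was over 2-fold higher, beside 6.35% of all genes.

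The colonic epithelium is renewed from stem cells at the base of its crypts, which depend on WNT signals and express Lgr5, and their descendants become goblet cells, which secrete mucin, or absorptive cells with a brush border. Cells that lack sterols activate the transcription factor SREBP2 and with it the genes of cholesterol synthesis. Low oxygen stabilizes HIF, which induces glycolysis and angiogenic factors. Unfolded protein in the endoplasmic reticulum and a shortage of amino acids induce chaperones and the ATF4 and CHOP programs, and all of these respond to the conditions of a culture as well as to the state of its cells.

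CC-531 was derived from a colon carcinoma of WAG/Rij rats, and all 9 libraries come from this line. The cells were grown as a monolayer in RPMI1640 medium with 10% fetal bovine serum and were sampled at passages 5, 8 and 11. The organoids were the same cells grown in matrigel, a basement membrane gel, as a 3-dimensional culture. The ex vivo tumors grew in the peritoneum of WAG/Rij rats aged 8 to 10 weeks after an injection of CC-531 cells, so they hold cells of the host, and the labels give neither an animal nor a passage for tumors 1 to 3. No library is labelled as treated with a drug or heat. The labels do not say how many days after seeding, at which density or in which medium each organoid culture was lysed, so passage cannot be told apart from these or from any other feature of the culture or library. By the paper's methods, each sample type was taken at 3 passages. Whether the libraries came from separate cultures is not given beyond this.

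The measured quantity was the count of reads per gene. Total counts were 20444595 in p7, 18753142 in p8 and 15968793 in p9, within the series' range of 12601774 to 24335921. At least 1 count was seen for 18751 genes in p7, 19702 in p8 and 19457 in p9. Levels are given as CPM, the counts scaled to a common library total and between libraries by the trimmed mean of M values (TMM). CPM are not divided by gene length, so they compare a gene between libraries and not genes with each other. A count of 3, taken as the limit of detection, corresponds to 0.145, 0.168 and 0.2 CPM in p7, p8 and p9. Differences are in log2 CPM with a prior count of 2.

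Of 34322 genes in the table, 13331 passed a filter on low values. A gene is called higher or lower in p7 here where its log2 CPM, with the prior count, lay over 2-fold above or below both p8 and p9, which for genes of few counts differs from the ratio of the printed CPM. By this rule 846 genes (6.35%) were higher in p7 and 1401 (10.5%) were lower, and past 4-fold there were 124 (0.93%) and 374 (2.81%). The shares of 6.35% and 10.5% are those to set beside the 2-fold counts of each list below. Between p8 and p9, 156 genes (1.17%) differed over 2-fold. The median absolute difference was 0.471 between p7 and the mean of p8 and p9 and 0.108 between p8 and p9. The median SD of log2 CPM was 0.076 for p8 and p9, 0.27 for the cells and 0.309 for the ex vivo tumors. These SDs are not like for like. The first is over 2 libraries of neighbouring passages, and the others are over 3 libraries each, with the cells from passages 5, 8 and 11. At the 2-fold border, the smaller of the log2 differences was 1.0001 for MGC108823, just inside, and 0.9998 for Unc5cl, just outside. On the lower side it was -1.0003 for LOC120103492 and -0.9973 for Zfp758.

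**Figure D1:**
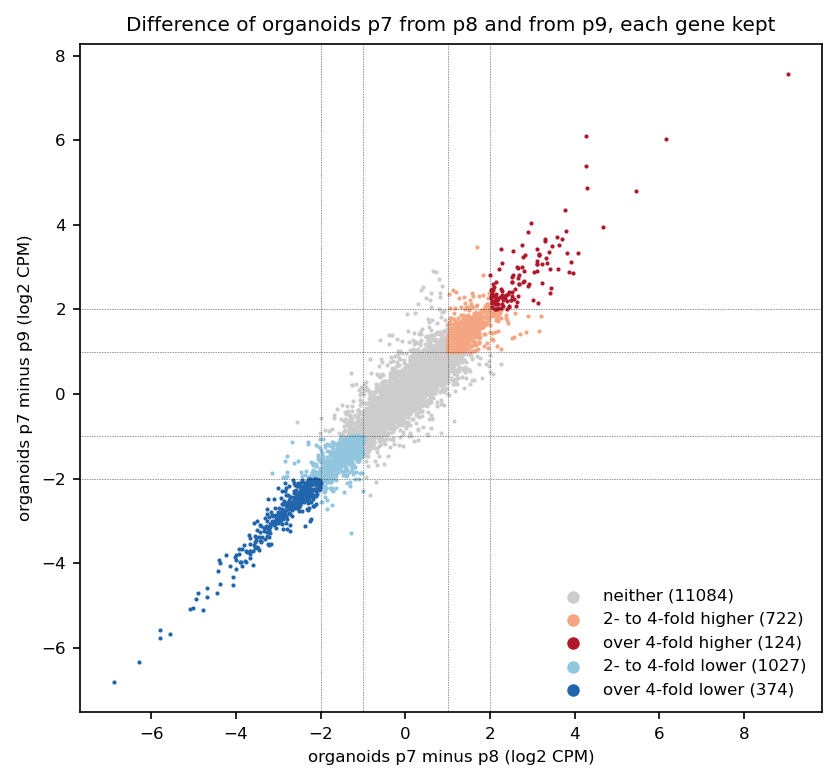
Difference of organoids p7 from p8 (horizontal axis) and from p9 (vertical axis) in log2 CPM, 1 point for each of the 13331 genes kept, coloured by the fold passed against both libraries. The points lie along the diagonal, with 374 genes over 4-fold lower and 124 over 4-fold higher in p7.

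The direction of these counts depended on 1 scaling. With each library centred on the median level of 27 housekeeping genes, 2407 genes were over 2-fold higher and 763 lower, and the median of all genes moved from 0.01 to 0.47. Centred instead on the median of each housekeeping gene's deviation from its own mean, a variant added after the data were seen, the counts were 838 and 1406. Scaling by total counts gave 1038 and 1213, with a median of 0.11.

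Secretory genes were mixed, with Muc2 and Agr2, which earlier results of these data had named, higher in p7 and Fcgbp, Gcnt3 and Capn8 lower. Muc2, whose product forms the gel of the mucus layer, was at 144 CPM in p7 against 15.3 and 17.0 in p8 and p9, and at 0.223 to 0.508 in the cells. The ex vivo tumors were at 2.51, 60.7 and 27.9 CPM, so p7 exceeded all other 8 libraries. Agr2, a protein disulfide isomerase needed to fold that mucin, was at 53.8, 3.48 and 6.06 CPM in p7, p8 and p9. The cells held 0.113 CPM of Agr2 or less, and the tumors between 14.6 and 33.0. In log2 the difference of p7 from the mean of p8 and p9 was 3.15 for Muc2 (SD of p8 and p9 0.11) and 3.52 for Agr2 (SD 0.55).

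Of 34 goblet and secretory genes listed, 19 passed the filter, with 8 higher and 3 lower in p7 and a median difference of 0.59, beside 0.01 over all genes. The higher genes included Creb3l1, a transcription factor of secretory cells, at 16.8, 3.76 and 4.46 CPM in p7, p8 and p9, and the membrane mucin Muc1, at 92.6, 31.7 and 29.4. The lower ones were Fcgbp, a protein of the mucus gel, at 72.1, 181 and 187 CPM, Gcnt3, which branches mucin glycans, at 6.68, 24.7 and 23.2, and the protease Capn8 at 13.2, 106 and 99.2. The gastric-type mucin Muc5ac was at 24.5, 39.1 and 37.4 CPM and did not pass 2-fold. All 3 organoid libraries lay above the cells on this list, with a median gene 1.89, 2.24 and 2.21 above them (log2). With the filter at a mean log2 of at least 6, which removes low genes, the list's median was -0.52, so the list as a whole has no stable direction.

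Dmbt1, a scavenger receptor glycoprotein of the mucosal surface that binds bacteria, showed the largest difference of any gene named. It was at 1161 CPM in p7 against 2.08 and 6.06 in p8 and p9 (23991, 37 and 91 counts). Cells p5, p8 and p11 held 0, 0.167 and 0 CPM, and the tumors 30.7, 350 and 284. The log2 difference was 8.30 (SD of p8 and p9 1.06), and p8 and p9 themselves differed for this gene. Among 15 mucosal defense genes kept, 5 were higher in p7 and 6 lower. Pla2g2a, a secreted antibacterial phospholipase of Paneth cells, was at 5.71, 0.112 and 0.266 CPM, and the Paneth cell protease Mmp7 at 16.8, 2.53 and 3.26. In the other direction lay genes of inflamed epithelium. Duox2, an epithelial oxidase that makes hydrogen peroxide, was at 54.8, 301 and 276 CPM in p7, p8 and p9. Its maturation factor Duoxa2 was at 2.08, 15.2 and 12.99, and Nos2, the inducible nitric oxide synthase, at 0.775, 9.6 and 11.3. The median of this list was 0.38, turning to -0.29 without a filter and to -0.61 with a filter on the organoids' mean CPM.

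**Figure D2:**
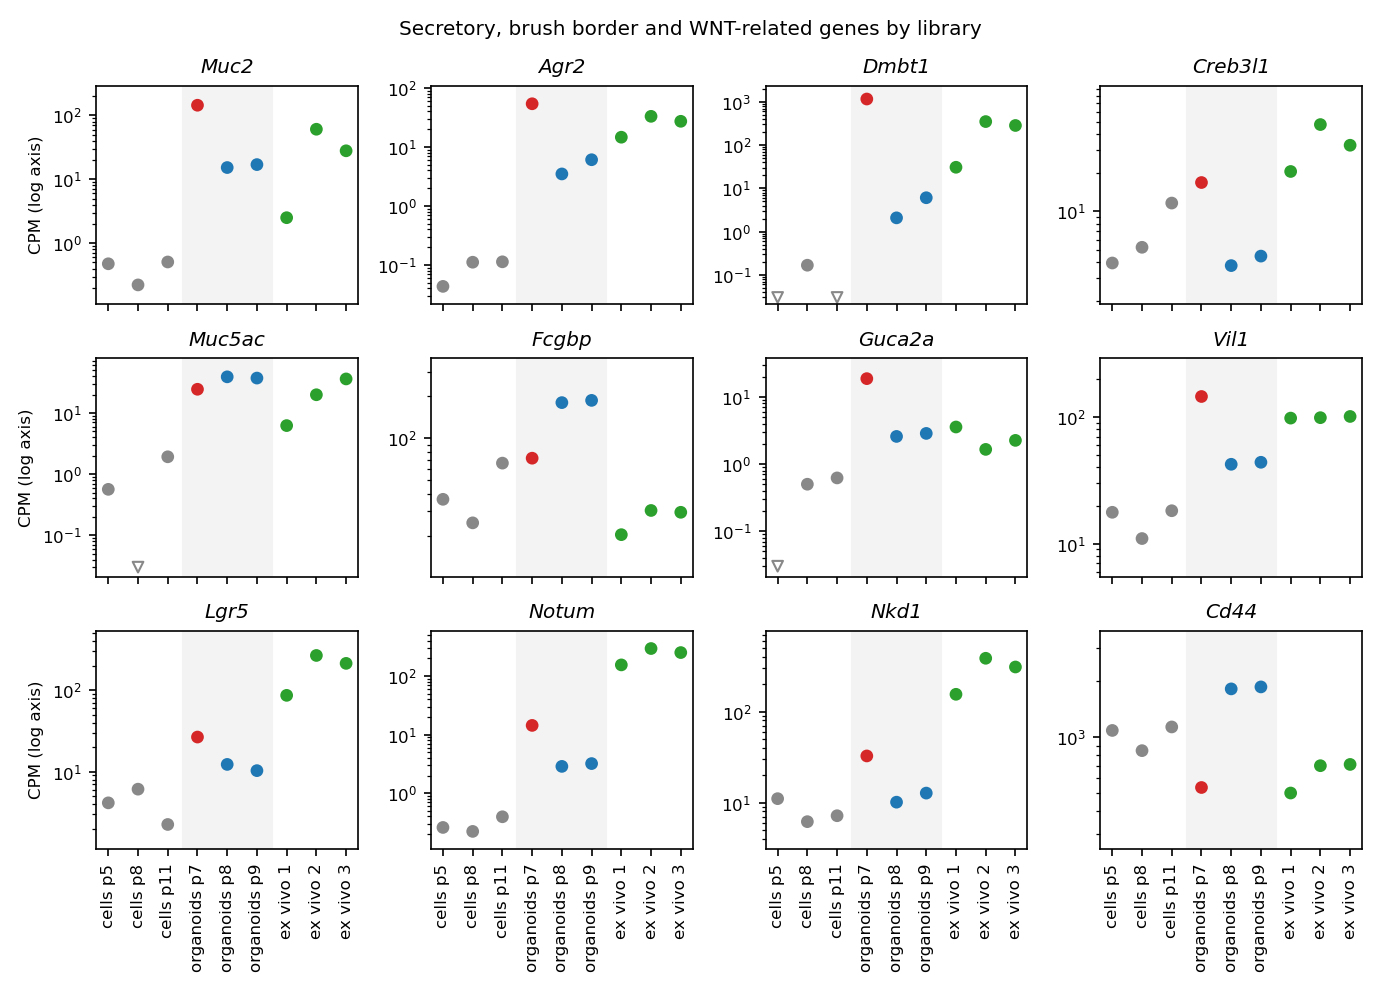
CPM (log axis) of 12 secretory, brush border and WNT-related genes in each of the 9 libraries. Grey points are cells, red is organoids p7, blue organoids p8 and p9 and green ex vivo tumors, the band marks the organoids, and open triangles mark 0 counts. Muc2, Agr2, Dmbt1 and Vil1 are highest in p7 of all libraries, and Cd44 is lower in p7 (536 CPM) than in p8 and p9 (1816 and 1861).

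Brush border genes were likewise split by gene. Vil1 encodes villin, the actin bundler of the microvilli, and was at 146 CPM in p7 against 42.4 and 44.0 in p8 and p9. It was at 10.96 to 18.2 CPM in the cells and 98.3 to 101 in the tumors. Guca2a and Guca2b encode guanylin and uroguanylin, gut peptides that stimulate fluid secretion. Guca2a was at 18.8, 2.58 and 2.86 CPM in p7, p8 and p9 and Guca2b at 9.49, 2.53 and 2.93. Their receptor gene Gucy2c had no count in the cells, and the filter on the mean over all 9 libraries left it out. It was at 13.7, 0.505 and 0.866 CPM in p7, p8 and p9. Dpp4, a brush border peptidase, was at 15.6, 2.13 and 2.0 CPM. Of 20 genes of the list kept, 6 were higher and 4 lower in p7, beside 6.35% and 10.5% of all genes, with a median of 0.22. The lower ones were Cdhr2, a protocadherin that joins microvilli, at 8.96, 36.8 and 30.1 CPM, the steroid hydroxylase Cyp3a9, the keratin Krt20 and the lipid droplet gene Plin2. Cdx2, the transcription factor that specifies intestinal epithelium, was at 134 CPM in p7 and at 38.9 and 45.2 in p8 and p9, which was the range of the cells (38.5 to 49.8) and close to that of the tumors (33.8 to 40.9).

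Of 24 stem cell and WNT genes kept, 8 were higher in p7 and 3 lower, with a median of 0.21, and Lgr5, Notum and Nkd1 were higher in p7 but below their levels in the tumors. Lgr5, the stem cell receptor for R-spondin, was at 26.6 CPM in p7 against 12.3 and 10.3 in p8 and p9. It was at 2.26 to 6.12 CPM in the cells and at 86.3, 266 and 213 in the tumors. Notum, a secreted enzyme that inactivates WNT ligands, was at 14.3, 2.86 and 3.2 CPM in the organoids, at 0.395 or less in the cells and at 155 to 294 in the tumors. Nkd1, an intracellular WNT antagonist, was at 32.6, 10.1 and 12.7 CPM in p7, p8 and p9 and at 155 to 386 in the tumors. Rnf43, the ubiquitin ligase that removes the WNT receptor Frizzled, was at 107, 46.8 and 41.03.

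The other higher genes of this list were the transcription factors Lef1 and Tcf7, the receptor Tnfrsf19 and Dkk2, whose 1.99, 0.112 and 0.466 CPM are low beside 72.9 to 103 in the tumors. Axin2, the scaffold protein most used as a readout of the pathway, was not among them, at 144, 190 and 178 CPM. The lower genes were the hyaluronan receptor Cd44, at 536, 1816 and 1861 CPM, and the ligands Wnt7b and Wnt11. Wnt7b was at 35.1, 99.7 and 96.5 CPM in the organoids and at 124 to 166 in the cells.

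Of 22 regenerative and fetal epithelium genes kept, 9 were lower and 1 was higher, with a median of -0.8. Clu, which marks revival stem cells of the damaged mouse intestine, was at 10.2 CPM in p7 and 70.4 and 61.7 in p8 and p9. Plaur, the urokinase receptor, was at 47.0, 252 and 242, and the EGF receptor ligand Areg at 2.42, 9.83 and 11.9. The exception, Ccn2, a matricellular YAP target, was at 170, 58.3 and 57.7 CPM. Another YAP target, Ccn1, was lower, at 15.1 against 51.6 and 49.6.

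Lama3 and Lamb3, which encode laminin chains that anchor epithelium to its basement membrane, were lower in p7. Lama3 was at 83.5 CPM in p7 and 483 and 461 in p8 and p9, and Lamb3 at 66.6, 367 and 331. The cells held 473 to 605 CPM of Lama3, so p7 was the lowest of all 9 libraries for this chain. Col7a1, the collagen of anchoring fibrils, was at 0.726, 9.38 and 6.59 CPM. These genes and the collagen receptor subunit Itga2 were among the 5 lower genes of 22 basement membrane genes kept. None of the list was higher, and over all genes 10.5% were lower and 6.35% higher. The list's median of -0.34 turned to 0.13 when centred on the housekeeping level. A pair of junction genes went the other way. Cldn2, the pore-forming claudin, was at 34.2, 2.98 and 2.93 CPM and P-cadherin (Cdh3) at 72.0, 11.9 and 12.7, while the stress keratin Krt6a was at 3.97, 57.4 and 48.3.

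Cholesterol synthesis had the largest share of genes over 2-fold lower in p7 among the lists described here. Of its 27 genes, all kept, 23 were lower in p7, 11 of them past 4-fold, and none was higher. The median difference was -1.8, against 0.01 over all genes. Mvd, a decarboxylase of the mevalonate pathway, was at 55.3 CPM in p7 against 455 and 418 in p8 and p9. The cells were at 33.7 to 80.2 CPM and the tumors at 21.6 to 41.4, so p7 lay within the range of the cells and p8 and p9 above every other library. Insig1, which retains the SREBP complex in the endoplasmic reticulum and is itself a target of it, was at 182, 1370 and 1279 CPM. Cyp51, the lanosterol demethylase, was at 780, 4132 and 4055, and Idi1, an isomerase of the same pathway, at 140, 845 and 828. Srebf2, which encodes SREBP2, was at 284, 406 and 395 CPM and did not pass 2-fold. Mylip, a ubiquitin ligase induced by sterols through LXR, was the member with the largest opposite value, at 11.1, 3.76 and 5.6 CPM. On this list the median gene was 0.21 above the mean of the cells in p7 and 2.2 and 2.12 in p8 and p9 (log2).

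Fatty acid synthesis showed the same direction in 11 of 18 genes kept, with a median of -1.26 and none higher. Acss2, which makes acetyl-CoA from acetate, was at 23.96 CPM in p7 and 424 and 405 in p8 and p9, and at 2.11 to 10.3 in the cells. Scd, a desaturase of fatty acids, was at 103, 620 and 609 CPM, and fatty acid synthase (Fasn) at 735, 2267 and 2288. Acaca, the acetyl-CoA carboxylase of the cytosol, was at 174, 154 and 169, while its mitochondrial counterpart Acacb was at 16.3, 115 and 110. Srebf1, which encodes the SREBP of fatty acid genes, was at 114, 86.0 and 79.0, so that neither SREBP gene moved past 2-fold.

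In the hypoxia and glycolysis list 19 of 37 genes kept were lower in p7 and none was higher, with a median of -1.05. Vegfa, the angiogenic factor, was at 377 CPM in p7 and 1713 and 1579 in p8 and p9. Bnip3, a mitophagy receptor, was at 85.5, 423 and 408, and Pfkfb4, which regulates glycolytic flux, at 12.97, 142 and 125. The cells held 8.57 to 19.5 CPM of Pfkfb4 and the tumors 10.4 to 14.9, so that p7 lay within both ranges and p8 and p9 above them. This was not so for all members. Pgk1, a glycolytic enzyme, was at 3368 CPM in p7 against 5692 and 5884 in p8 and p9, beside 758 to 970 in the cells, and Egln3, the oxygen sensor that HIF itself induces, was at 479, 698 and 719 against 97.2 to 150. The median gene of the list lay 0.96 above the cells in p7 and 2.07 and 2.17 in p8 and p9, so the list was higher than in the monolayer in each organoid library and by less in p7.

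The integrated stress response, by which ATF4 and its target CHOP answer a lack of amino acids or unfolded protein, was lower in p7 in 20 of 31 genes kept, 8 past 4-fold, with a median of -1.4 and none higher. Ddit3, which encodes CHOP, was at 12.9 CPM in p7 against 175 and 171 in p8 and p9. It was at 26.7 to 59.4 in the cells and 31.2 to 47.6 in the tumors, so p7 was the lowest library. Trib3, a pseudokinase induced by CHOP, was at 8.13, 94.1 and 100 CPM, and Atf3 at 1.65, 22.2 and 23.9. Slc7a11, the cystine importer, was at 14.3, 213 and 224. Atf4 itself was at 320, 891 and 923 CPM. A listed gene, the collagen receptor Ddr2, does not belong to this program by its known role and was under 1 CPM in all organoid libraries.

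Chaperones of the endoplasmic reticulum were lower in 20 of 28 genes kept, with a median of -1.37 and a range of -2.39 to -0.03, so no member lay above 0. Hspa5, the chaperone BiP, was at 416 CPM in p7 against 1721 and 1933 in p8 and p9. The cells held 501 to 986 and the tumors 632 to 654, and p7 was again below all of them. Creld2 was at 30.2, 151 and 166 CPM, and Dnajc3, a co-chaperone of BiP, at 32.2, 145 and 156. The membrane lectin Canx was at 825, 1365 and 1447 and the transcription factor Xbp1 at 108, 154 and 158, neither past 2-fold.

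Promoters of these chaperone genes are shown because 8 of them hold an element that was absent from the promoters of the other 4 lists searched. The ER stress element, CCAAT and CCACG with 9 bases between them, was searched on both strands in RefSeq promoters of GRCr8, from 250 bases before to 50 after each gene's start. It was present in 8 of 22 promoters of the list (36.4%) and in 16 of 10064 promoters of genes kept (0.2%). The 8 genes were Hspa5, Hsp90b1, Calr, Canx, Dnajc3, Creld2, Xbp1 and Ero1b, of which all but Canx and Xbp1 were over 2-fold lower in p7. This element and the one described next were added to the search after the lists had been described. Each window below runs 5′ to 3′ on the strand of the gene, with the element in capitals, read in reverse in Creld2 and Hsp90b1. A match is a run of letters and not a measured binding site.
Hspa5 (GRCr8, chr3:38452943-38453021, plus strand): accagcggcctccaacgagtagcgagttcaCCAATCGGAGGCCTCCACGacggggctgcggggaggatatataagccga
Dnajc3 (chr15:102432504-102432582, plus strand): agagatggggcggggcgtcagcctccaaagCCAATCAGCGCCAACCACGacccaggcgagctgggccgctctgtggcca
Creld2 (chr7:121789209-121789287, plus strand): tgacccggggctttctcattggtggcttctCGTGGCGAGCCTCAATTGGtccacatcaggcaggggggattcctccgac
Hsp90b1 (chr7:23012317-23012395, minus strand): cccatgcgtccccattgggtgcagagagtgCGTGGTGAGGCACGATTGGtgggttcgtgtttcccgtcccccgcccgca

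The amino acid response element, searched as TGATGNAA on both strands, was in 6 of 26 promoters of the integrated stress response list (23.1%) and in 202 of 10064 promoters of genes kept (2.0%). The genes were Trib3, Chac1, Nupr1, Slc7a1 and Aars1, all lower in p7, and Pycr1, which makes proline and was at 65.7, 32.8 and 26.6 CPM in p7, p8 and p9 and lay just short of 2-fold against p8. The windows of the 3 with the largest differences are given to show how the same letters sit at different distances from the start, which the windows place 14 to 21 bases before it in Trib3, 160 to 167 in Chac1 and 48 to 55 in Nupr1. In all 3 the element is in its reverse form.
Trib3 (GRCr8, chr3:161275517-161275584, minus strand): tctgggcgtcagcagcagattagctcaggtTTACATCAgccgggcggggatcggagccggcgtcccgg
Chac1 (chr3:126795934-126796001, plus strand): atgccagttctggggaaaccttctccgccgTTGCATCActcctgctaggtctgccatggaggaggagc
Nupr1 (chr1:190645919-190645986, minus strand): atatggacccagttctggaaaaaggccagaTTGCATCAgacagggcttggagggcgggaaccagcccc

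The other searched letters gave less. The core of the sterol element, TCACNCCAC, was in 0 of 19 promoters of the cholesterol list, against 1.2% of genes kept. The hypoxia core ACGTG was in 18 of 33 promoters of the hypoxia list (54.5%), against 25.5%, and the E-box CACGTG, which contains it, in 5 (15.2%), against 9.3%. Neither was particular to this list. ACGTG was in 40.9% of chaperone, 30.8% of stress response, 21.1% of cholesterol and 13.3% of fatty acid promoters. The E-box was in 18.2%, 19.2%, 15.8% and 6.7% of the same lists. The absence of a match says only that these letters are not in this window.

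**Figure D3:**
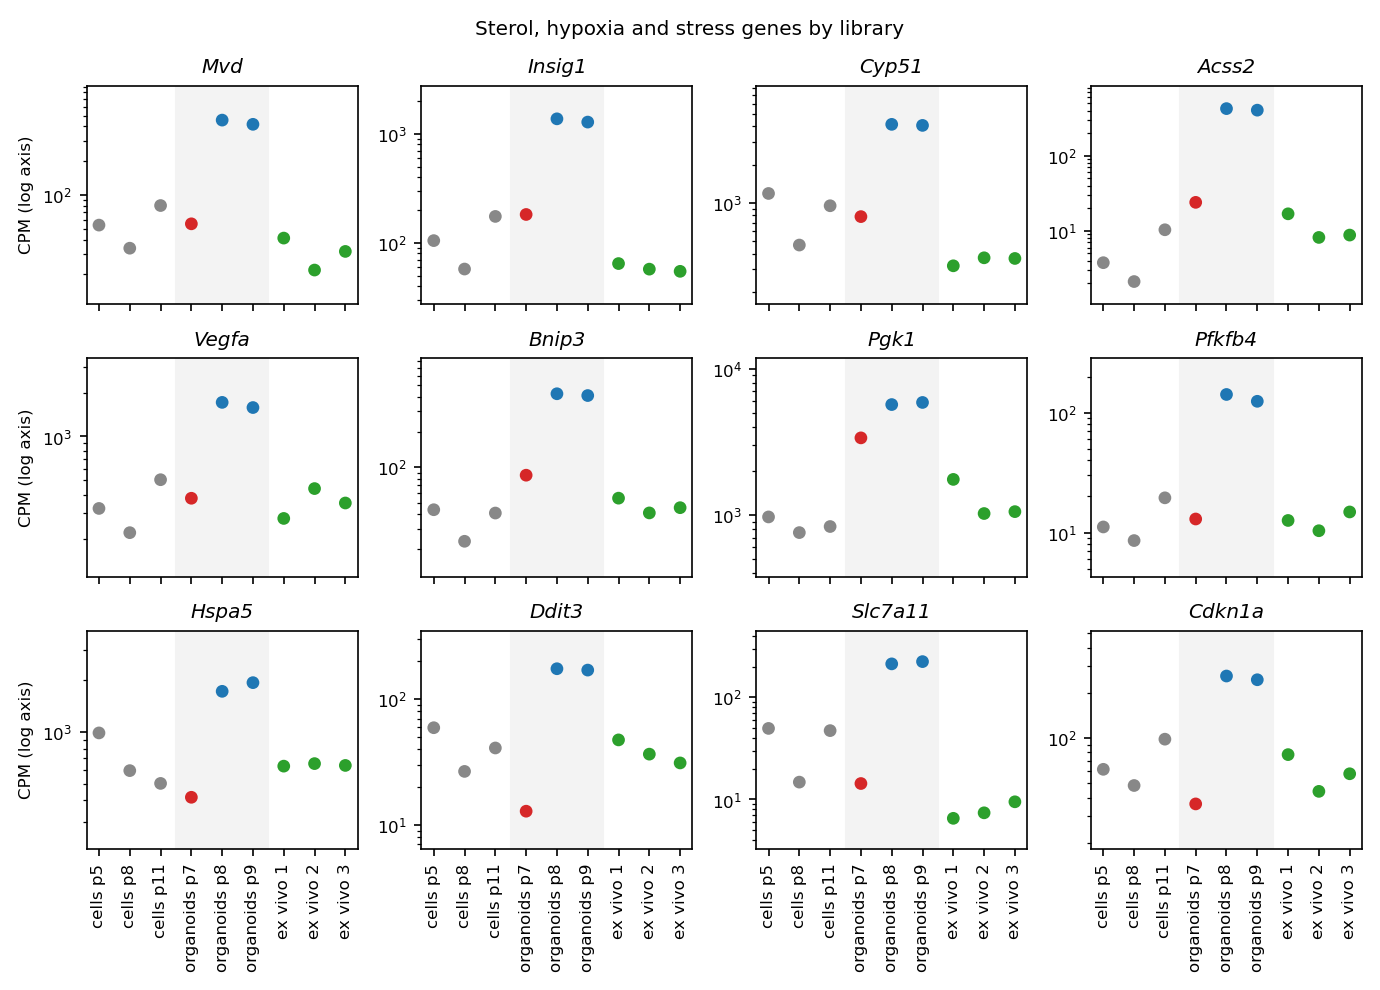
CPM (log axis) of 12 sterol, hypoxia and stress genes in each of the 9 libraries, coloured as in the plot of secretory genes. In each panel p8 and p9 are the highest of all libraries, and p7 lies within or below the range of the cells and tumors except for Insig1, Acss2, Bnip3 and Pgk1, where it lies between them and p8 and p9.

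Of 25 NF-kB and cytokine genes kept, 17 were lower and none higher, with a median of -1.4. Csf2, the cytokine GM-CSF, was at 0.242 CPM in p7 (5 counts) and at 9.04 and 8.33 in p8 and p9. The cytokine Lif was at 5.81, 62.2 and 65.7 CPM, and the neutrophil chemokine Cxcl2 at 2.42, 24.3 and 24.4. Il1a, an alarmin, was at 2.08, 33.4 and 29.97 CPM in the organoids and spread from 3.03 to 103 in the cells, so that cells p11 exceeded p8 and p9. Tnfaip3, an inhibitor of NF-kB, was the member with the largest value in the other direction, at 89.9, 51.3 and 43.6.

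Immediate early genes, which are transcribed within minutes of a stimulus, were lower in 14 of 32 genes kept and higher in none, with a median of -0.96. Dusp1, a phosphatase of MAP kinases, was at 18.7 CPM in p7 against 273 and 240 in p8 and p9, and Egr1 at 37.9, 124 and 131. Fos, by contrast, was at 33.1, 25.1 and 28.8 CPM, and the ERK feedback genes Spry2 and Dusp6 were at 131 and 397 in p7, above p8 and p9 for both. Of 28 p53 target genes kept, 8 were lower and 1 higher, beside 10.5% and 6.35% of all genes. Their median of -0.26 turned to 0.21 when centred on the housekeeping level. Cdkn1a, the cell cycle inhibitor p21, was at 36.3, 259 and 244 CPM and Sesn2, also counted as a stress response gene, at 11.9, 90.9 and 83.5, whereas Ddb2, a DNA repair gene, was at 13.9, 5.84 and 5.73.

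Among 32 NRF2 targets and detoxification genes kept, 6 were higher in p7 and 6 lower, beside 6.35% and 10.5% of all genes. The median was -0.01. The higher genes include enzymes that act on foreign compounds. The glutathione transferase Gsta4 was at 24.7, 2.75 and 3.2 CPM in p7, p8 and p9, Gstm1 at 15.0, 2.47 and 1.33, and Ephx1, an epoxide hydrolase, at 35.7, 7.81 and 9.06. The lower ones include heme oxygenase (Hmox1), at 35.7, 271 and 269, and the aldo-keto reductase Akr1b8, at 74.9, 370 and 383. Gclc and Gclm, the subunits of the enzyme that starts glutathione synthesis, did not pass 2-fold, at 146, 116 and 128 and at 38.8, 34.3 and 36.4 CPM.

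Over all 13331 genes kept, 6162 lay above both p8 and p9 by any amount, which is the count to set beside those of this paragraph. All 32 mitosis genes were above both p8 and p9, with a median of 0.84, but only Ccnb2, Nusap1 and Aurkb passed 2-fold. Ccnb2, cyclin B2, was at 98.6 CPM in p7 and 32.7 and 36.6 in p8 and p9, and at 69.8 to 121 in the cells. Mki67, the proliferation antigen Ki-67, was at 566, 361 and 516, where p7 and p9 lay close together. All 40 ribosomal protein genes kept also lay above both p8 and p9, between 0.47 and 0.98, with a median of 0.76 and none past 2-fold. Their median gene was 0.8 above the cells in p7, -0.06 and 0.03 in p8 and p9, and 1.14, 0.27 and 0.2 in tumors 1, 2 and 3. The MYC and ribosome assembly list had a median of 0.61 with 34 of 36 genes above both libraries, and Nop16, a nucleolar assembly factor, was at 111, 37.6 and 39.8 CPM. Of 38 respiratory chain genes 33 lay above both, with a median of 0.46. The housekeeping list had a median of -0.11.

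**Figure D4:**
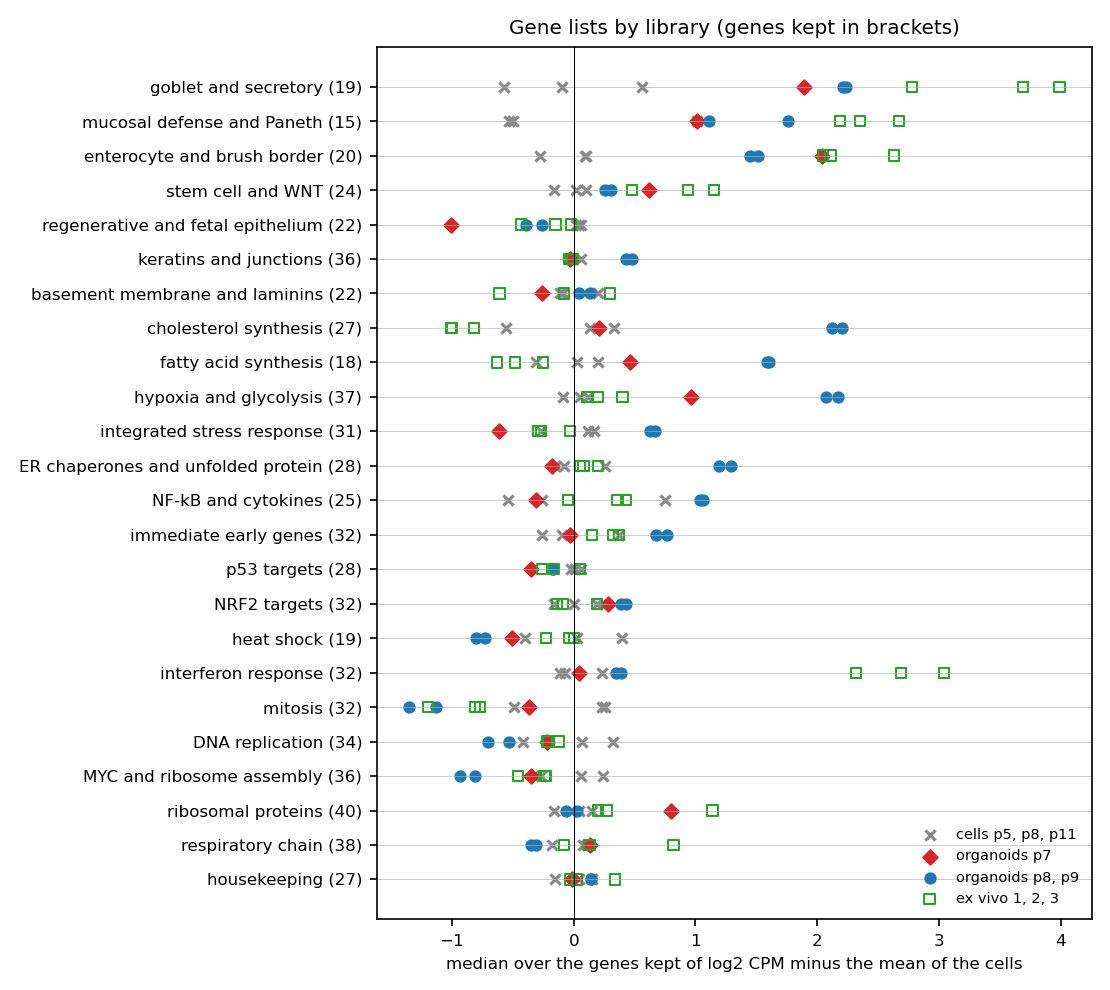
For each gene list, the median over its genes kept (number in brackets) of log2 CPM minus the mean of the cells, in every library. Organoids p7 (red) lie within the spread of the cells for cholesterol synthesis (0.21) while p8 and p9 (blue) lie at 2.2 and 2.12, and p7 is the highest organoid library for ribosomal proteins (0.8).

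The largest single differences fell outside these lists in part. Among genes with a symbol, at least 10 CPM in the higher library and p8 and p9 within 2-fold of each other, 69 were over 4-fold higher in p7 and 177 lower. Ly6c, a small surface protein, was at 16.0 CPM in p7 (331 counts) with 2 counts in each of p8 and p9. Gata2, a transcription factor of blood and endocrine lineages, was at 122, 12.2 and 9.86 CPM and at 4.95 to 10.6 in the cells. Prg4, which encodes lubricin, was at 18.1, 1.35 and 1.47, and Plce1, a phospholipase C, at 54.1, 3.76 and 5.26. Thbs1, the matrix protein thrombospondin 1, was at 216 CPM in p7 and 21.2 and 24.8 in p8 and p9, within the 118 to 224 of the cells.

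In the other direction, Clca4l, of the calcium-activated chloride channel regulator family, was at 1.4 CPM in p7 (29 counts) and 178 and 169 in p8 and p9. It reached 12.4 CPM in cells p11 and at most 5.68 in the tumors. Dnah3, an axonemal dynein chain, had 3 counts in p7 against 256 and 211 in p8 and p9. Cd28, known as a costimulatory receptor of T cells, also had 3 counts in p7 but 14.2 and 12.2 CPM in p8 and p9 and 7.67 to 11.7 CPM in the cells. The 19 T, B and NK cell markers in the table summed to 2.37 CPM in p7 against 3.43 and 3.46 in p8 and p9. The chemokine receptor Ccr1 was at 0.436, 16.3 and 14.1 CPM, and the plasminogen activator inhibitor Serpinb2 at 2.32, 38.5 and 42.4. Near-identical copies in the Clca, Ly6, keratin and chemokine families may share reads, and no source used here gives the strand setting of the counting. These values are uncertain to that extent.

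The filter removed 8502 genes with at least 1 count in an organoid library. Of these, 4 were over 4-fold higher in p7 at 10 CPM or more and 2 were lower. The named ones were Gucy2c, given above, Igfbp1, a binding protein of insulin-like growth factors, at 11.1, 1.24 and 1.73 CPM, and the junction protein Vsig1 at 13.8, 2.3 and 1.87. None of the 3 exceeded 0.0867 CPM in the cells.

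Against the reference levels, more of the genes over 4-fold lower in p7 lay near the cells in p7 than in p8 and p9, and more of those over 4-fold higher lay near the tumors. Of the 374 genes over 4-fold lower, p7 lay within 2-fold of the mean of the cells for 160 (42.8%) and the mean of p8 and p9 for 101 (27.0%), the median distances being -1.04 and 1.72 (log2). The tumors gave a like order, within 2-fold for 143 (38.2%) against 88 (23.5%). Of the 124 genes over 4-fold higher, p7 was within 2-fold of the tumors for 58 (46.8%) and p8 and p9 for 21 (16.9%), with medians of 0.41 and -2.31. Against the cells these were 27 (21.8%) and 49 (39.5%), whereas for the 846 genes over 2-fold higher they were 56.3% and 54.4%. Over all genes kept, p7 was within 2-fold of the cells for 84.6% and p8 and p9 for 79.9%, and of the tumors for 80.4% and 73.1%. The members of each set were picked on p7, p8 and p9, so part of these shares is given by the choice.

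The tumors and the cells share no library with the choice of p7, and their difference was tested with edgeR's quasi-likelihood test on those 6 libraries, at a Benjamini-Hochberg adjusted p under 0.05. Over all 13331 genes, 1828 (13.7%) rose in the tumors and 1063 (7.97%) fell. Among the 124 genes over 4-fold higher in p7, 89 (71.8%) rose and 2 (1.6%) fell, with a median log2 fold change of 2.21 beside -0.01 over all genes. Among the 374 genes over 4-fold lower in p7, 95 (25.4%) rose and 66 (17.6%) fell, with a median of 0.00. In a fit of all 9 libraries, 61 of the 124 higher genes rose (49.2%) and 0.0% fell. The shares of the 374 lower genes in that fit were 15.2% and 6.4%, beside 12.4% and 6.8% over all genes. In the test on 6 libraries, 37.0% of the 846 genes over 2-fold higher rose and 3.9% fell. Among the 1401 lower, these were 20.7% and 17.5%. The filter averages over tumors and cells, so a gene low in p8 and p9 can pass it through the tumors. With a filter on the organoids' mean CPM alone, added after the data were seen, 101 of 144 genes over 4-fold higher in p7 rose (70.1%), beside 11.9% over all genes. Such genes can pass this filter through p7, so it does not remove the effect of the choice. Of the 89 genes that rose under the main filter, 43 had a mean under 1 CPM in the cells, where a fall could hardly be called. The shares over all genes were not matched for level. With quantile normalization and limma, which moved the median of all genes to -0.25, 50.8% of the 124 rose and 6.5% fell, and of the 374 lower genes 16.6% rose and 38.5% fell, beside 10.4% and 20.9% over all genes. The labels do not tie the libraries to separate cultures or animals, so these p-values speak only of how far the sampled libraries spread, which may be technical.

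**Figure D5:**
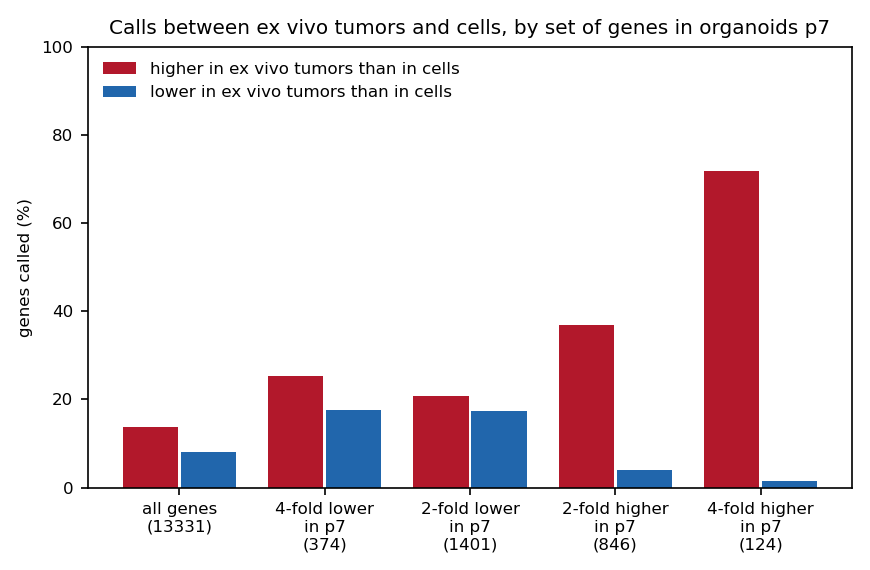
Percent of genes called higher (red) or lower (blue) in ex vivo tumors than in cells by edgeR, for all genes and for the sets over 2-fold and 4-fold lower or higher in organoids p7, with the number of genes in brackets. The share called higher is 71.8% among the 124 genes over 4-fold higher in p7 and 13.7% among all genes.

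Agr2 rose between cells and tumors by 8.06 ± 0.53 (log2 fold change ± SE, edgeR adjusted p = 7.44e-07), Muc2 by 6.20 ± 0.97 (adjusted p = 0.000687), Vil1 by 2.66 ± 0.24 (adjusted p = 9.73e-06) and Nkd1 by 5.11 ± 0.39 (adjusted p = 2.3e-06). The cells held 0.113 CPM of Agr2 or less, under their 3-count limits of 0.13 to 0.169, so the size of its rise is uncertain. For Muc2 the tumors spread from 2.51 to 60.7 CPM. Dmbt1 rose as well (adjusted p = 1.78e-05), with 3 counts over the cells. The genes low in p7 took no common direction. In the cholesterol list 15 of 27 genes fell and 1 rose. In the hypoxia list 7 of 37 rose and none fell, and in the chaperone list 6 of 28 rose and none fell. Over all genes 13.7% rose and 7.97% fell, so the rises in the hypoxia and chaperone lists lay much nearer to the share over all genes than the falls in the cholesterol list.

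The tumors hold cells of the host, and in these bulk samples fewer cells of a type cannot be told apart from less RNA per cell. Of the 89 genes, 2 (Bgn and Mpeg1) are in the lists of macrophage, lymphoid, endothelial, fibroblast, mural or other tissue markers, which have 55 genes kept. The 89 come from 13331 genes kept, so 2 of 55 is not a smaller share than that over all genes. The low count follows from the short lists. The 26 fibroblast and matrix markers summed to 142, 126 and 132 CPM in p7, p8 and p9, to 256 to 354 in the cells and to 7252 to 14390 in the tumors. The 25 macrophage markers summed to 76.8, 29.1 and 30.04 CPM in the organoids, and to 4550 to 5428 in the tumors. Cd14, the coreceptor of endotoxin, made up 68.6, 19.2 and 19.7 CPM of this in the organoids and was at 34.4 to 51.8 in the cells. The complement genes C1qa, C1qb and C1qc had no count in the organoids. The part of host cells in the shares above was not tested.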

How the data were processed

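RNA-seq of the 9 CC-531 libraries was used. The authors, by their methods and processing notes, examined reads with FastQC 0.11.9 and MultiQC 1.9, removed the first 11 bases and bases under a Phred score of 20 with Cutadapt 1.18, and aligned to mRatBN7.2 with STAR 2.7.4, which also gave the number of reads per gene. The deposited table, although named as normalized, holds whole-number counts. Annotation and strand setting: not given in the sources used here. Every column of the table was used.

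As in the study, the filter asked for an average log2 value of 4 or more over all 9 libraries after quantile normalization, with 1 added to each count here. TMM factors, dispersions and quasi-likelihood F tests were computed with edgeR 4.0.16 in R 4.3.3, with limma 3.58.1 and DESeq2 1.42.0 in alternatives, and tables and figures in Python 3.11.15 with pandas 2.3.3 and matplotlib 3.10.9. Each SE was obtained from the fold change (log2) and the root of its F value. The edgeR test of tumors against cells was tried on simulated data, with an outcome not given here. Passage 7 was not tested against passages 8 and 9, as 1 library has no spread of its own.

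The members and the 40 gene lists were chosen with earlier results of these data known, so that no list is independent evidence. Named genes are the 12 largest differences in each direction past 4-fold among genes with a symbol, at least 10 CPM and p8 and p9 within 2-fold, up to 3 genes in each direction and the most abundant gene of each list, Muc2, Agr2, Dmbt1, and up to 5 in each direction of those the filter left out. Other members named were chosen after their values were seen. Alternatives were other scalings, prior counts and filters, leaving out single libraries, a fit of all 9 libraries, DESeq2 and limma. Promoters are from RefSeq, GRCr8, a build other than that of the counts, and were matched by symbol to 10064 of the genes kept. Limits of detection cover counting error only. A list of mitochondrial genome genes could not be matched by name and is not analysed here. Some genes are not reported here.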

Additional observations from a re-analysis of the deposited data

How the results depend on the processing

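Of the 156 named genes past 2-fold, 0 changed direction under any scaling, prior count or left-out library tried. This outcome was largely given by the choice. The genes lay past 2-fold against both p8 and p9, so leaving out either could not turn them. The largest shift by a scaling moved the median of all genes from 0.01 to 0.47, which is short of 2-fold. With levels centred on the housekeeping median, the 2-fold counts were 2407 higher and 763 lower, 287 and 202 past 4-fold, and the medians of keratins and junctions (0.00), EMT (0.01), basement membrane (0.13), p53 targets (0.21) and YAP targets (0.10) turned. Without a filter 2358 genes were over 2-fold lower, 209 over 4-fold higher and 616 lower, the mucosal defense median was -0.29 and that of the pericyte, muscle, mesothelium and adipocyte list -0.09. With a mean log2 of at least 6 the 4-fold counts were 71 and 214 and the goblet median -0.52. With the organoids' mean CPM, chosen after the data were seen, the mucosal defense median was -0.61 and the fibroblast median 0.34.

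For ex vivo tumors against cells, a fit of all 9 libraries gave 15.2% up and 6.4% down among genes over 4-fold lower. Among those over 4-fold higher it gave 49.2% up, against 71.8% in the main test, and 0.0% down. The edgeR filter called 3416 genes up over all genes, and no filter called 4596 up and 1876 down, with 3.2% of the higher genes down. Quantile normalization with limma called 2785 genes down over all genes, with 6.5% of the higher and 38.5% of the lower genes down and 16.6% of the lower genes up. Leaving out 1 library at a time gave 572 to 1034 genes down, the lowest without cells p8 and 644 without cells p5, 0.0% to 2.4% of the higher genes down and 62.1% to 69.4% up. Without p8 or without p9, the 2-fold counts were 1082 and 1081 (higher) and 1515 and 1624 (lower). No paired analysis was possible because passage numbers of cells and organoids do not mark shared samples. Depth limits genes near 3 counts, about 0.2 CPM.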

Other observations

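Interferon genes split between the sides. Of 32 kept, 6 were over 2-fold higher in p7 and 6 lower, beside 6.35% and 10.5% of all genes, with a median of -0.1. The GTPase Irgm was at 23.2, 8.7 and 9.19 CPM in p7, p8 and p9, whereas the antiviral enzyme Rsad2 was at 0.629, 6.68 and 6.13. Fn1, fibronectin, was at 104, 231 and 215 CPM in the organoids, below 1774 to 5982 in the cells and 1978 to 2903 in the tumors. Vim, the mesenchymal intermediate filament, was at 52.1, 119 and 131 CPM in p7, p8 and p9.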
